A study of Mus musculus with 8 samples.

Results

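Adult and embryonic myosin heavy chains were read on 8 Agilent arrays of forepaw skin through 14 probes, which are all the non-control probes that the scanner files name Myh1, Myh2, Myh3, Myh4, Myh6, Myh7, Myh8 or Myh11. These are 8 of 29608 gene names and 14 of 39429 probes, and each probe is described apart. The mice were C57BL/6J WT mice and PAC1R KO mice (Adcyap1r1 -/-), all male and aged 9 to 10 weeks, with 6 mice of each genotype. All were anaesthetized, and 5 µL of saline with 0.1% BSA was injected intradermally into the footpad, either alone (vehicle) or with 1e-07 mol/L of pituitary adenylate cyclase-activating polypeptide (PACAP), a peptide that acts on PAC1R. Skin was taken 30 or 60 min later, which gave 8 RNA samples in 4 comparisons of PACAP with vehicle. Which mice entered each RNA sample is not given in the sources used here. In each comparison the same pair of RNA samples was hybridized to 2 arrays with swapped dyes, so a comparison is 1 replicate without any measure of the spread between animals. The WT arrays shared 1 slide and the KO arrays shared another, which means that genotype and slide cannot be told apart. The deleted gene, Adcyap1r1, had log2 levels of 8.29, 8.27, 8.67 and 8.76 in the WT samples and 7.98, 7.91, 8.56 and 8.42 in the KO samples, each in the order vehicle and PACAP at 30 min, then at 60 min. This is lower at each matched time and treatment in the samples labelled KO, but not absent, so "KO" is the label of a sample throughout. The probe was read by its file name only, and whether it lies inside the deleted stretch is not given in the sources used here.

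Myosin heavy chains are the motor proteins of the thick filament. They bind actin, split ATP and set how fast a muscle cell shortens. In adult limb muscle, Myh4, Myh1 and Myh2 encode the heavy chains of the fast fibre types IIb, IIx and IIa. Myh7 encodes the chain of slow fibres and, with Myh6, the chains of the heart. Myh3 and Myh8 are the embryonic and perinatal chains, which are made in developing and regenerating muscle, and Myh11 is the chain of smooth muscle. In the skin of the paw, smooth muscle lies in the walls of vessels, while striated muscle lies beneath the dermis.

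Each probe is 60 bases long. In the mm9 coordinates of the files, Myh3, Myh2, Myh1, Myh4 and Myh8 were read from the plus strand of chromosome 11, in this order, between 66915107 and 67121984. Myh6 and Myh7 were read from the minus strand of chromosome 14 and Myh11 from the minus strand of chromosome 16. Exons and untranslated regions of mm9 were not analysed here. The heavy chains are similar in sequence, so the probes of an embryonic and a perinatal chain that moved together at 30 min are shown first, with the bases that are equal in their best ungapped alignment in capitals. The next probe reads another stretch of Myh8 and gave other ratios than the first Myh8 probe. The last reads Myh11, whose ratio followed the dye.
Myh3, A_55_P2083406, chr11:66915107-66915166 (+): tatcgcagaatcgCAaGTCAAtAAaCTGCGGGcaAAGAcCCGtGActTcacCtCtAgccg
Myh8, A_51_P143296, chr11:67121925-67121984 (+): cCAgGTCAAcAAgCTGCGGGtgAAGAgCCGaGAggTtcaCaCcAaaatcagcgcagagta
Myh8, A_55_P2120161, chr11:67093475-67093534 (+): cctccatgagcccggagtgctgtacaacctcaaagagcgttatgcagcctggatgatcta
Myh11, A_55_P1988531, chr16:14202190-14202249 (-): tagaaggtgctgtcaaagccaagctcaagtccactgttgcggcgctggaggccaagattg
The Myh3 and Myh8 probes shared 29 of 48 aligned bases, with a longest shared run of 7 bases. The longest run that any pair of the 14 probes shared was 10 bases, between Myh1 (A_55_P2147280) and Myh4. The probes were compared only with each other and not with the transcripts of the other members, so these values do not show how specific a probe is. Cross-hybridization between members was not tested.

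The 250 bases before the transcript start are shown for 3 genes of the chromosome 11 group that moved together at 30 min. They come from RefSeq on GRCm38.p6, another build than that of the probes. Capitals mark CAGCTG, a sequence that myogenic factors can bind, and TATAAA, the TATA box sequence, both searched on both strands.
Myh4, chr11:67237562-67237811 (+): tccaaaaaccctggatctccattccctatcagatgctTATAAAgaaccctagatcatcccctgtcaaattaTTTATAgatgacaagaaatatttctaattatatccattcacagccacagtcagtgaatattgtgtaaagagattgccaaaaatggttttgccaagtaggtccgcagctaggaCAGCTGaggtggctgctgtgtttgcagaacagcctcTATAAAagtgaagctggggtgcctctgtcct
Myh1, chr11:67199852-67200101 (+): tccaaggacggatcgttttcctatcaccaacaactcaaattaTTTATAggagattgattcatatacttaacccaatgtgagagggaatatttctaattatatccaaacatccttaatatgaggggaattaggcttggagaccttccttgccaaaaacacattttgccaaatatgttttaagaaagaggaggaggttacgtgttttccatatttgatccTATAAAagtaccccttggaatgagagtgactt
Myh3, chr11:67078050-67078299 (+): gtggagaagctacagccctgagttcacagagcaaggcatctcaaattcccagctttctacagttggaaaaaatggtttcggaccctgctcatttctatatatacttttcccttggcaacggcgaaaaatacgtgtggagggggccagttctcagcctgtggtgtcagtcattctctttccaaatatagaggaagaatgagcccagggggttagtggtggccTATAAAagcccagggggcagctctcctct
TATAAA began at -31 in Myh4, -32 in Myh1 and -29 in Myh3, counted from the transcript start, and it stood once in Myh8, at -96. Myh4 and Myh1 also held it further upstream, at -213 and -179 in Myh4 and at -208 in Myh1. Of all 32851 promoter windows of this length, 12.4% held TATAAA and 13.0% held CAGCTG, which stood in Myh4 at -67 and in none of the other 6 members with a window. The windows of Myh2, Myh6 and Myh7 held neither sequence, and Myh11 had no entry.

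In WT mice at 30 min, Myh1, Myh2, Myh3, Myh4, Myh7 and Myh8 had a probe that was higher after PACAP. In the samples labelled KO at 30 min, Myh1, Myh4, Myh7 and Myh8 had a probe that was lower. A probe was counted when its mean over both arrays was at least 2.0-fold or at most 0.5-fold, with both arrays in the same direction and each at a p below 0.01 in Feature Extraction, the scanner software. That p covers the error of a spot on 1 array and no difference between animals. In WT at 30 min the rule counted 7 of the 14 probes up and 0 down, against 0.254% up and 0.0964% down of all probes on the arrays. In KO at 30 min it counted 0 members up and 4 down, against 0.601% and 0.107% of all probes. At 60 min it counted 0 members in either direction, against 0.583% up and 0.109% down of all probes in WT, and 0.142% and 0.15% in KO. The median log2 ratio of the 13 members measured was 1.19 for WT and -0.90 for KO at the earlier time, and 0.01 for WT and 0.20 for KO at the later one. Over all probes these medians were -0.05, -0.01, -0.01 and 0.00. One probe of Myh8 (A_51_P239800, chr11:67108324-67108383) was well above background in 0 of 16 channels, so it has no ratio.

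**Figure D1:**
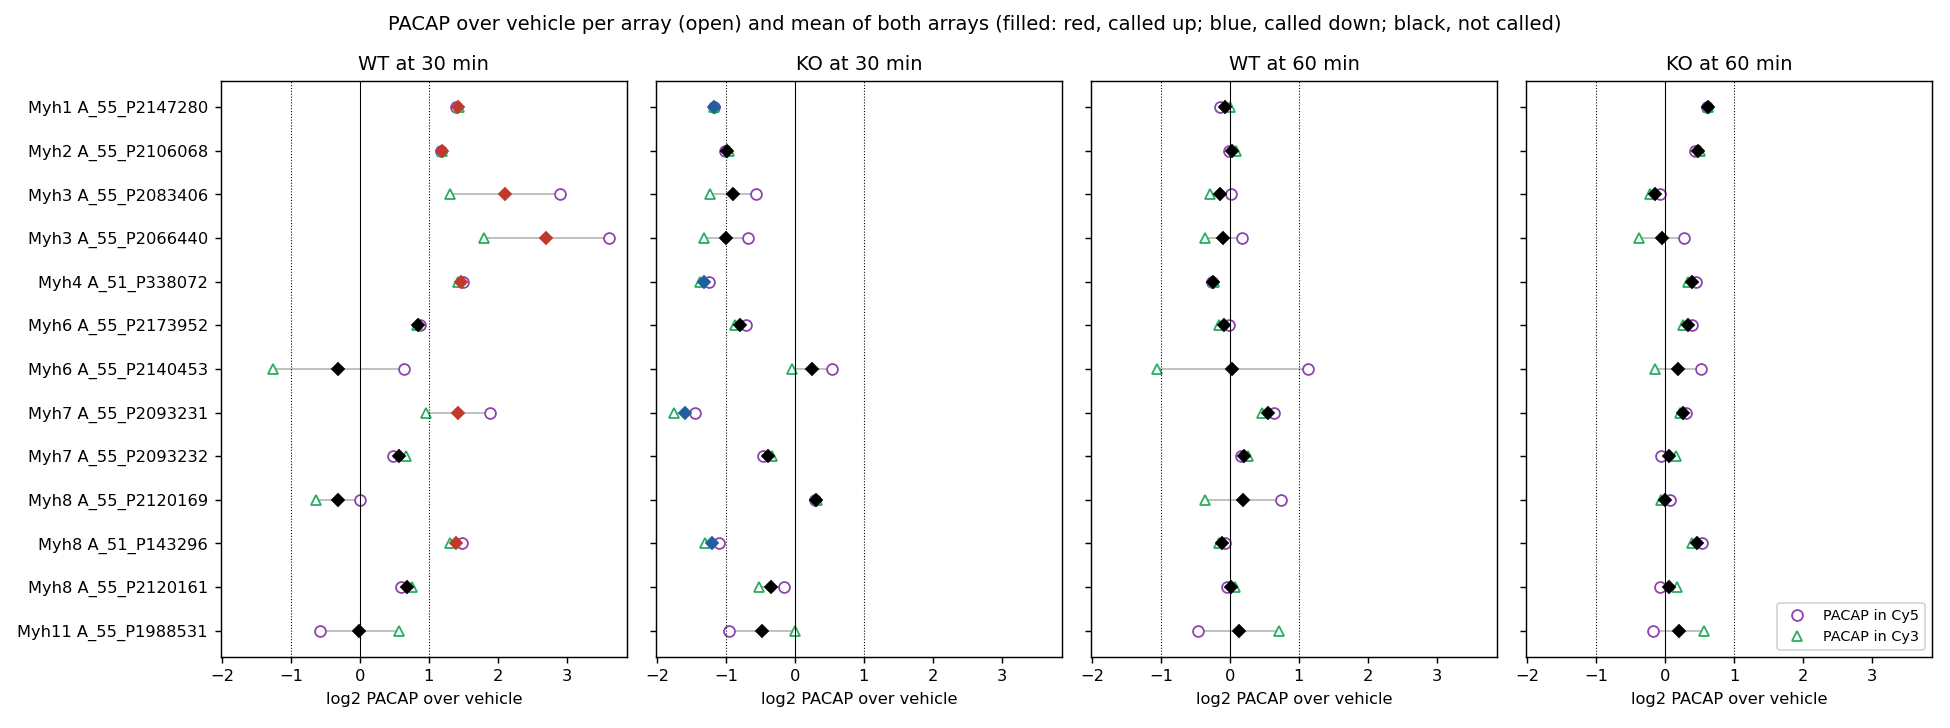
The log2 ratio of PACAP over vehicle (x axis) is shown for the 13 measured probes (y axis) in the 4 comparisons, with each array as an open symbol and the mean of both as a filled one. In WT at 30 min 7 means are counted as up-regulated and in KO at 30 min 4 as down-regulated, and dotted lines mark 2.0-fold and 0.5-fold.

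Among the fast chains, Myh4 (A_51_P338072) was 2.83-fold and 2.68-fold on the 2 arrays of WT at 30 min. In KO at 30 min it was 0.42-fold and 0.38-fold, and at 60 min 0.83-fold and 0.85-fold in WT and 1.36-fold and 1.26-fold in KO. The arrays of a comparison lay close together, and the 30 min ratios of the genotypes lay on opposite sides of 1. Myh1 was 2.63-fold and 2.72-fold in WT at 30 min and 0.44-fold and 0.45-fold in KO at 30 min. It was 0.90-fold and 1.00-fold in WT at 60 min, and 1.52-fold and 1.54-fold in KO at 60 min. Myh2 was 2.26-fold and 2.29-fold in WT at 30 min. With 0.50-fold and 0.52-fold on the 2 arrays (mean 0.507-fold), Myh2 in KO at 30 min lay just outside the threshold, next to Myh1 with a mean of 0.445-fold just inside. At 60 min Myh2 was 0.99-fold and 1.06-fold in WT and 1.35-fold and 1.43-fold in KO. All these fast chain probes were well above background in 16 of 16 channels.

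The perinatal chain Myh8 was read by 4 probes, which did not give the same picture. The probe A_51_P143296 was 2.79-fold and 2.48-fold in WT at 30 min and 0.47-fold and 0.41-fold in KO at 30 min. At 60 min it was 0.95-fold and 0.89-fold in WT and 1.45-fold and 1.32-fold in KO. The probe A_55_P2120161, which lies 5′ of it, was 1.52-fold and 1.69-fold in WT at 30 min and 0.90-fold and 0.69-fold in KO at 30 min, with neither mean past the thresholds. The probe A_55_P2120169, assigned to another transcript, was 1.00-fold and 0.64-fold in WT at 30 min and 1.23-fold and 1.25-fold in KO at 30 min. The pattern of the fast chains was thus seen in full at 1 of the 3 measured Myh8 probes. The files assign A_51_P143296 and A_55_P2120161 to the same transcript. Their log2 levels, described below and not comparable between probes, lay between 12.90 and 14.32 and between 7.12 and 7.76. Pearson's r between the 2 probes over the 8 RNA samples was 0.479. Whether A_51_P143296 reads Myh8 alone was not tested.

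The embryonic chain Myh3 had the largest ratios among the members in WT at 30 min, and they differed between the arrays and between 2 ways of processing. The probe A_55_P2066440 was 12.2-fold and 3.48-fold on the 2 arrays, and A_55_P2083406 was 7.45-fold and 2.47-fold. In the vehicle sample of that comparison, only 1 of the 2 arrays had both probes well above background. With normexp background correction and loess normalization, which were changed together, they were 1.75-fold and 1.40-fold and no longer counted. In KO at 30 min, A_55_P2066440 was 0.63-fold and 0.40-fold and A_55_P2083406 0.68-fold and 0.43-fold, and neither was counted. At 60 min their arrays lay between 0.77-fold and 1.21-fold.

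Myh7, the slow and cardiac chain, had 2 probes that lie end to end on chromosome 14. The probe A_55_P2093231 was 3.69-fold and 1.94-fold in WT at 30 min and 0.37-fold and 0.30-fold in KO at 30 min, past the thresholds in both. In the vehicle sample of WT at 30 min, only 1 of the 2 arrays had it well above background. With normexp and loess its mean was 1.38-fold for WT and 0.658-fold for KO. The neighbouring probe A_55_P2093232, well above background in 16 of 16 channels, was 1.39-fold and 1.59-fold in WT at 30 min and 0.73-fold and 0.79-fold in KO at 30 min, and was not counted. Both probes had the same direction in these comparisons, with ratios of different size.

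**Figure D2:**
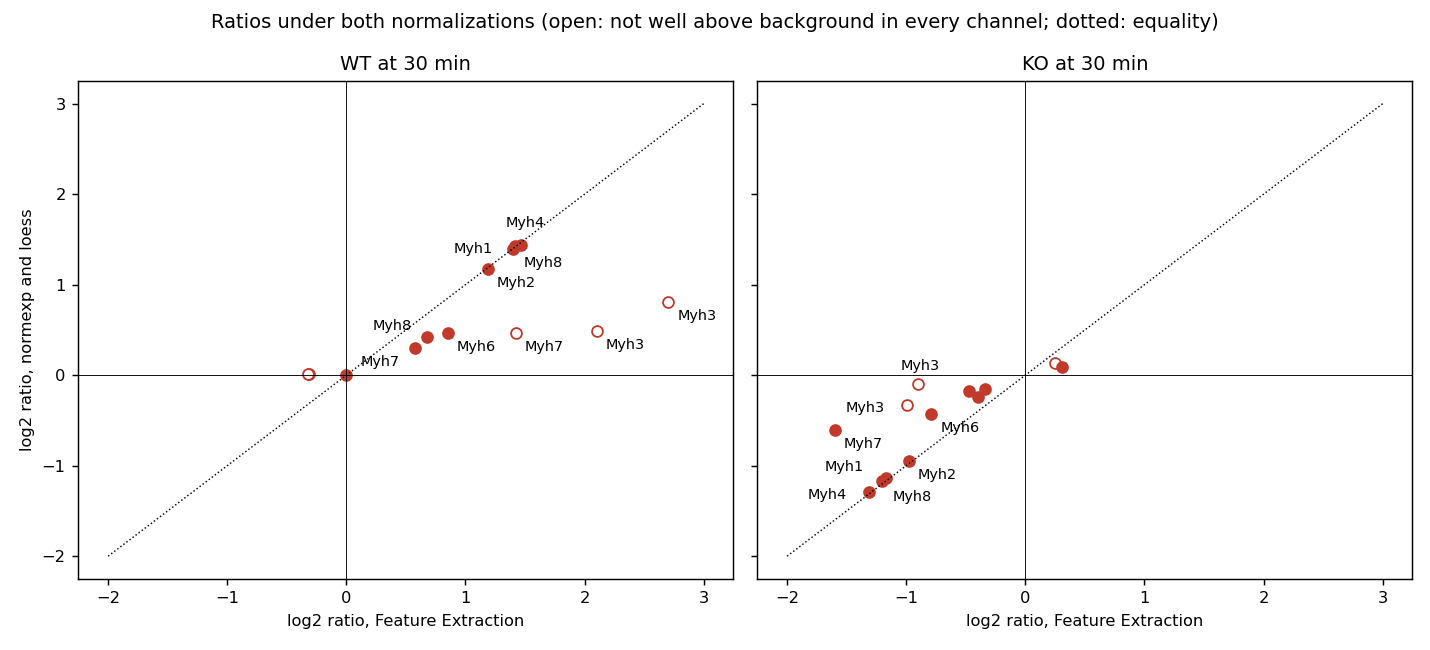
The mean log2 ratio by Feature Extraction (x axis) is set against that by normexp and loess (y axis) for the 13 measured probes at 30 min, with equality dotted and probes that were not well above background in each channel open. Myh1, Myh2, Myh4 and 1 Myh8 probe lie on the line. Myh3, Myh7, Myh6 (A_55_P2173952) and Myh8 (A_55_P2120161) lie nearer 0 by normexp and loess (1.75-fold for the higher Myh3 probe in WT).

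The cardiac chain Myh6 was read by 2 probes. The probe A_55_P2173952 (chr14:55560774-55560833) was 1.83-fold and 1.77-fold in WT at 30 min and 0.61-fold and 0.55-fold in KO at 30 min, under the fold threshold but with a Feature Extraction p below 0.01 on all 4 arrays. With normexp and loess its mean was 1.385-fold for WT and 0.745-fold for KO. The probe A_55_P2140453 (chr14:55584132-55584191) was 1.55-fold and 0.42-fold in WT at 30 min and 2.18-fold and 0.48-fold in WT at 60 min, so its arrays went opposite ways. In 6 of the 8 RNA samples, only 1 array had it well above background. The smooth muscle chain Myh11 was 0.67-fold and 1.48-fold in WT at 30 min, 0.52-fold and 1.00-fold in KO at 30 min, 0.73-fold and 1.64-fold in WT at 60 min and 0.89-fold and 1.48-fold in KO at 60 min. In all 4 comparisons it was lower on the array with PACAP in Cy5 than on the array with PACAP in Cy3. On the log2 scale the gap between the arrays was larger than each mean, and 0 were counted.

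The levels of the single RNA samples show which sample of a comparison stood apart. A level is the log2 intensity of 1 probe after normexp, loess and Aquantile normalization, averaged over both arrays, and it is comparable between samples but not between probes. Myh4 had a level of 13.28 with vehicle and 14.72 with PACAP in WT at 30 min, and of 14.25 with vehicle and 12.96 with PACAP in KO at 30 min. At 60 min it was 13.57 with vehicle and 13.28 with PACAP in WT, and 13.36 and 13.77 in KO. The highest samples were thus WT with PACAP and KO with vehicle, both at 30 min.

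At 30 min Myh1 was 13.02 with vehicle and 14.44 with PACAP in WT, and 14.17 with vehicle and 13.04 with PACAP in KO. At 60 min it was 13.47 and 13.37 in WT, then 13.19 and 13.78 in KO, with vehicle given first. Myh8 (A_51_P143296) was 12.92 and 14.32, 14.07 and 12.90, 13.39 and 13.25, and 13.16 and 13.61 in the same order (WT and KO at 30 min, then WT and KO at 60 min). Myh2 was 10.89 and 12.06, 11.98 and 11.04, 11.78 and 11.85, and 11.51 and 11.93. For each of these genes, the WT sample with PACAP and the KO sample with vehicle were the highest at 30 min, and the WT sample with vehicle and the KO sample with PACAP the lowest. Between the vehicle samples at 30 min, KO lay above WT by 1.16 for Myh1, 1.10 for Myh2, 0.96 for Myh4 and 1.15 for Myh8 (A_51_P143296). The log2 ratios of PACAP over vehicle at 30 min, with WT first and KO second, were 1.42 and -1.17 for Myh1 and 1.19 and -0.98 for Myh2. They were 1.46 and -1.31 for Myh4 and 1.395 and -1.20 for Myh8 (A_51_P143296). In the differences between vehicle samples, genotype and slide cannot be told apart. At 60 min the vehicle samples of KO lay below those of WT by between 0.22 and 0.29 for these probes.

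Of the neighbours in the order of the 8 samples, 6 of 7 gaps were larger than the median gap between the arrays of a sample for Myh1 (0.07) and for Myh8 A_51_P143296 (0.09). For Myh4 and Myh2 these were 5 and 4 of 7. For the other measured probes between 0 and 3 of the gaps were, so most of their neighbouring samples did not differ beyond the gap between arrays. Myh3 (A_55_P2066440) stood at 7.24 in WT with PACAP at 30 min and between 6.43 and 6.77 in the 7 other samples. Myh11 lay between 6.49 and 6.98, and Myh7 (A_55_P2093232) between 7.06 and 7.51.

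**Figure D3:**
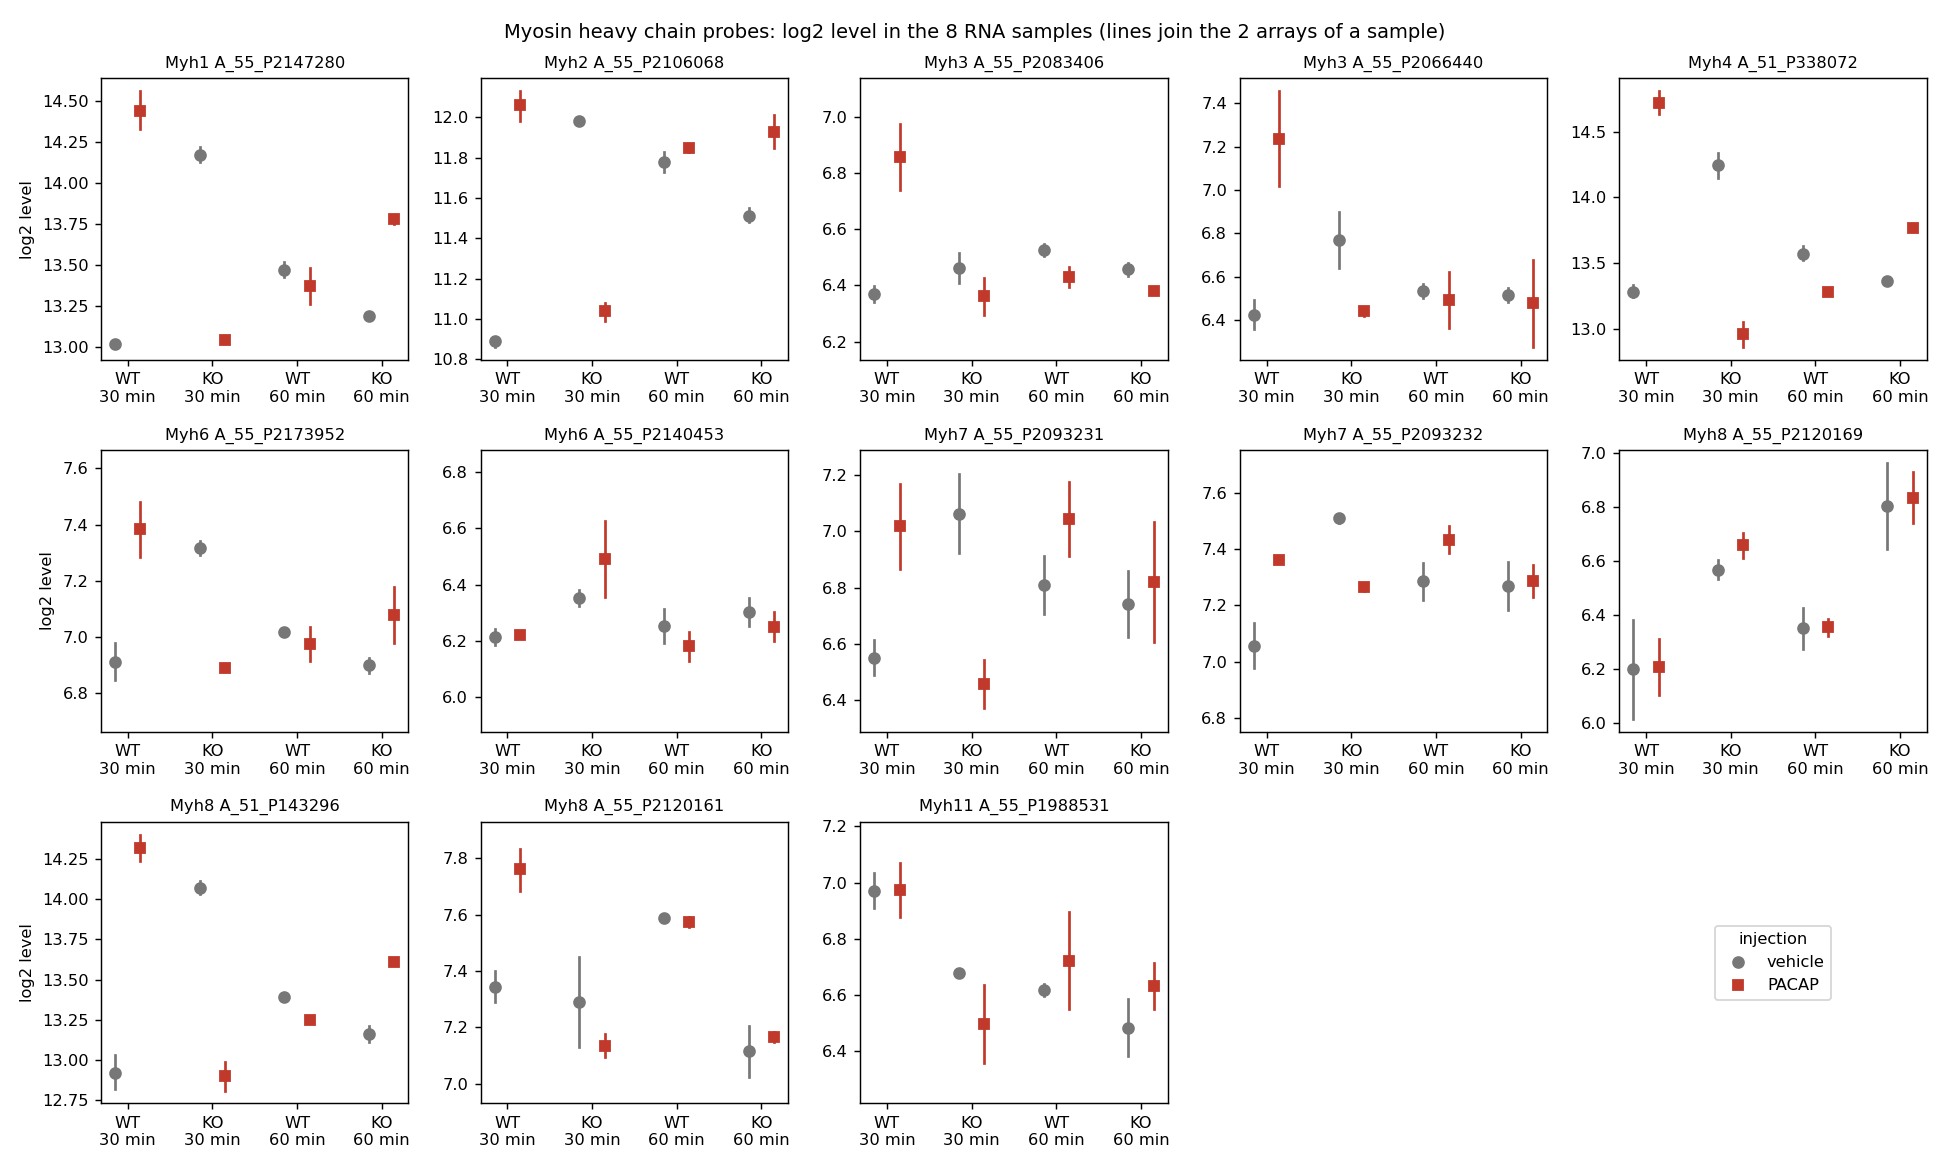
The log2 level (y axis) of the 13 measured probes is shown in the 8 RNA samples (x axis), vehicle as circles and PACAP as squares, with lines joining the 2 arrays of a sample. For Myh1, Myh2, Myh4 and Myh8 (A_51_P143296) the highest samples are WT with PACAP and KO with vehicle at 30 min, and the y axes differ between probes.

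The order of the levels was shared by several members. Over the 8 RNA samples Pearson's r was 0.997 between Myh1 and Myh8 (A_51_P143296), 0.979 between Myh4 and that Myh8 probe, 0.971 between Myh1 and Myh4, and 0.983 between Myh1 and Myh6 (A_55_P2173952). Against Myh1, r was 0.827 for Myh2, 0.775 and 0.64 for the Myh7 probes, and 0.862 and 0.727 for the Myh3 probes. The other Myh8 probes had an r of 0.475 and -0.144 with Myh1, and Myh11 an r of 0.367. The 8 samples share slides and hybridizations in pairs, so these values are descriptions. Among 30351 probes, the genes whose levels were most like Myh4 were Mtus1 (r = 0.980), Myh8 (0.979) and Serping1 (0.979). For Myh3 (A_55_P2066440) they included Tbc1d1 (0.979) and Runx1t1 (0.960). For Myh7 (A_55_P2093232) they were Ovol2 (0.943), Pdp1 (0.941) and 6030445D17Rik (0.912), and for Myh11 they were Mast3 (0.989), Gpr135 (0.986) and Galnt6 (0.985).

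Other genes of muscle are given by list, each set beside the heavy chains at 30 min. Of 12 skeletal muscle markers, 12 had a log2 ratio above 0 in WT at 30 min, with a median of 0.72 and 1 up-regulated, Neb (2.10-fold), which encodes the thin filament ruler nebulin. In KO at 30 min 11 of 12 lay below 0, with a median of -0.77 and 3 down-regulated. These were Acta1 (0.459-fold), the skeletal actin, Actn3 (0.433-fold), the fast fibre actinin of the Z disc, and Eno3 (0.493-fold), the muscle enolase. The log2 ratio of the brightest marker, the oxygen store myoglobin (Mb), was 0.63 for WT and -0.54 for KO at this time. At 60 min the medians were 0.02 in WT and 0.04 in KO. The summed log2 level of the 12 markers was 16.74 with vehicle and 17.46 with PACAP in WT at 30 min, 17.26 and 16.61 in KO at 30 min, and between 17.17 and 17.23 in the samples at 60 min. In whole skin, fewer muscle cells in a piece and less RNA per muscle cell cannot be told apart. The part of muscle content in the ratios of the heavy chains was not tested. Relative to the median of the markers on the log2 scale, 8 of the 13 measured members lay above it and 5 below it in WT at 30 min, between -1.04 and 1.99. In KO at 30 min 8 lay below it and 5 above it, between -0.83 and 1.08. These extremes came from Myh3 (A_55_P2066440), Myh7 (A_55_P2093231) and Myh8 (A_55_P2120169), which were not well above background in each channel. With WT first and KO second, the difference from the median of the markers was 0.74 and -0.55 for Myh4 and 0.70 and -0.40 for Myh1. It was 0.13 and -0.02 for Myh6 (A_55_P2173952), and it had the other sign, at -0.14 and 0.37, for Myh7 (A_55_P2093232), and at -0.04 and 0.43 for Myh8 (A_55_P2120161). In KO at 60 min, where the median of the markers was near 0, Myh1 lay 0.57 and Myh4 0.34 above it.

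Among 9 genes of proteins that sit on the thick filament, the median log2 ratio at 30 min was 0.78 for WT, with 2 up-regulated, and -0.65 for KO, with 0 counted. The giant protein titin (Ttn) was 3.14-fold and the M band protein myomesin 2 (Myom2) 2.24-fold in WT at 30 min. Genes of fast fibres, 10 in number, had a median of 0.80 and -0.60, with all 10 above 0 in WT and 9 below 0 in KO, and 1 of them, Actn3, was counted. This list shares Actn3, Tnnt3, Tnnc2 and Casq1 with the skeletal muscle markers. Its brightest gene was the fast troponin I, Tnni2 (0.95 and -0.68). For 9 genes of slow fibres the medians were 0.31 and -0.36, and 0 were counted, with the slow troponin T, Tnnt1, the brightest at 0.43 and -0.68. Myosin light chains, 12 in number, had medians of 0.30 and -0.06 with 0 counted. Among them, with WT first and KO second, the fast light chain Myl1 was 0.87 and -0.50, Mylpf, also of fast muscle, was 0.29 and 0.19, and Myl6, the light chain of nonmuscle and smooth muscle myosin, was -0.04 and -0.02. Chaperones, kinases and ligases of myosin, 10 in number, had medians of 0.08 and -0.28 with 0 counted, among them Smyd1, a methyltransferase of muscle (-0.15 and 0.35), and the myosin chaperone Unc45b (0.54 and -0.83). Of 5 other heavy chains measured, 0 were counted, and their medians were 0.12 and -0.40, with the nonmuscle chain Myh9 the brightest at 0.40 and -0.41. In all of these lists the medians at 60 min lay between -0.13 and 0.28.

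Genes of developing and regenerating muscle, the setting in which Myh3 and Myh8 are known, had medians at 30 min of 0.20 for WT and -0.06 for KO, and 0 of the 12 measured were counted. The myogenic factor Myf6 was 0.26 and 0.01, Myog 0.25 and -0.02 and Myod1 0.04 and -0.20 on the log2 scale. Higher in WT were Cdh15 (0.63 and -0.40), Actc1 (0.62 and -0.26) and Myl4 (0.62 and -0.06). In WT 9 of the 12 lay above 0, and in KO 8 lay below 0. Smooth muscle markers, to which Myh11 belongs by function, had medians of 0.12 and -0.28, with 7 of 8 measured and 0 counted. The brightest was the actin-binding protein transgelin (Tagln), at 0.12 and -0.26. The 7 measured cardiac markers had median log2 ratios of -0.15 and 0.21. Of these only Nppb, a natriuretic peptide, was counted, in KO, at 8.95-fold for the earlier and 4.41-fold for the later time. Its normexp and loess values were 2.39-fold and 2.23-fold, and at 30 min the vehicle sample was well above background on 1 array. The brightest cardiac marker, the troponin T of the heart (Tnnt2), was -0.21 and 0.21 at 30 min.

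Epidermal keratinocyte genes, the main cells of the labelled tissue, were present in each sample, with a median log2 level between 15.03 and 15.70. In KO at 30 min 7 of 7 lay below 0, with a median log2 ratio of -0.78, and Krt1 (0.455-fold) and Krt10 (0.365-fold) were down-regulated. Their summed log2 level was 18.53 with vehicle and 17.75 with PACAP there, and between 17.99 and 18.30 in the 6 other samples. In the other comparisons their medians were 0.11 in WT at 30 min, 0.19 in WT at 60 min and 0.24 in KO at 60 min. The lower ratios of the heavy chains in KO at 30 min thus went with lower ratios of epidermal genes, whose part in the result was not tested. In WT at 30 min 5 of 7 epidermal genes lay above 0 and 0 were counted.

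**Figure D4:**
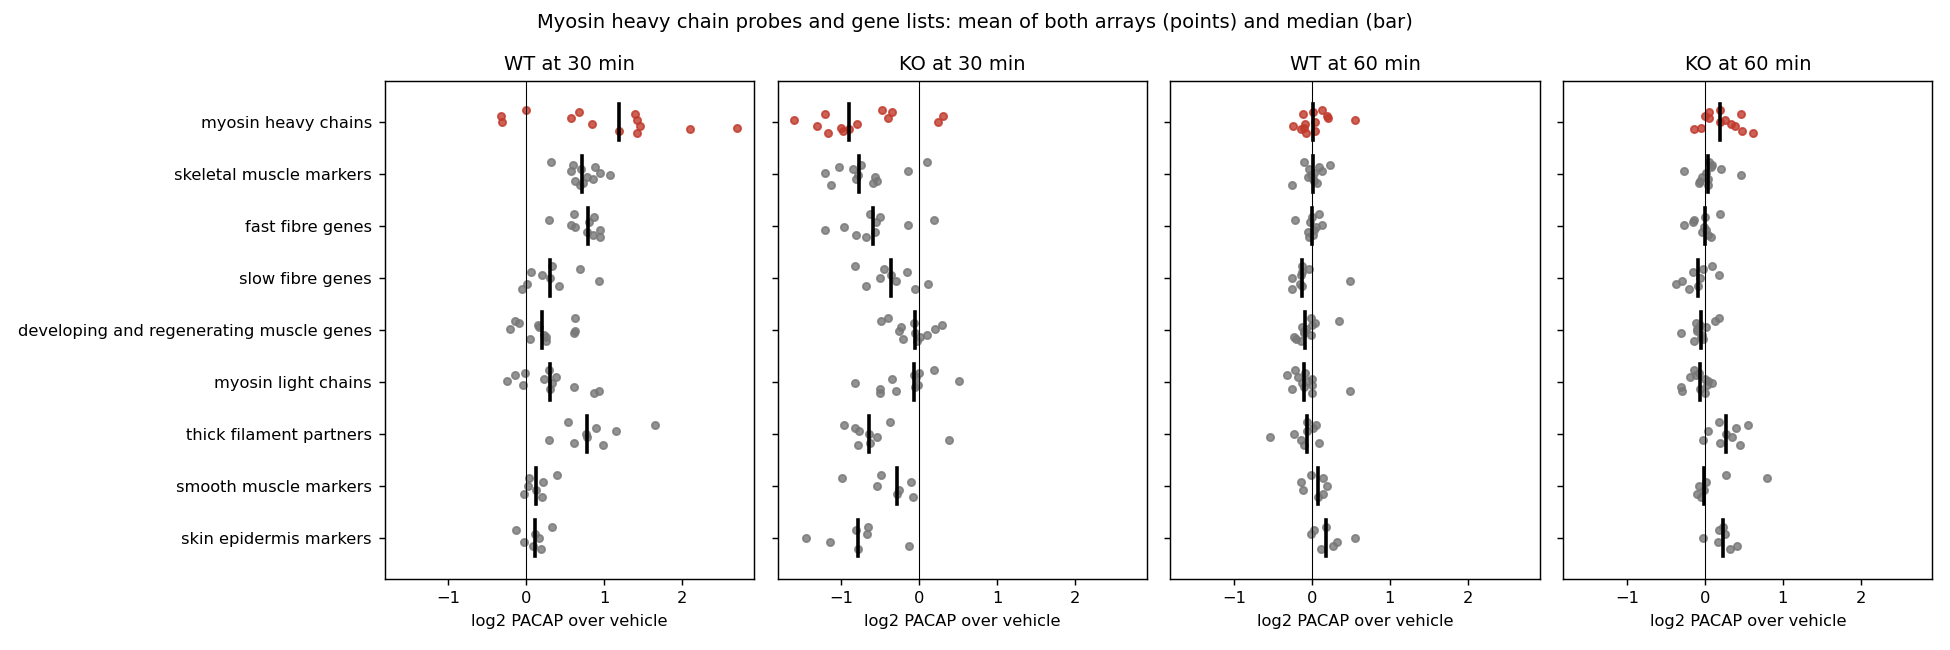
The mean log2 ratio of PACAP over vehicle (x axis) is shown for each member and each listed gene as a point, by list (y axis) and comparison, with the median as a bar. At 30 min the heavy chains (median 1.19 in WT, -0.90 in KO) and the skeletal muscle markers (0.72 and -0.77) have medians on opposite sides of 0 in the genotypes, and at 60 min these medians lie near 0.

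A PACAP effect shared by all comparisons, or one that differs between the genotypes, was tested with limma, with each comparison as 1 value. For the mean of the 4 comparisons 0 of the 13 members passed an adjusted p of 0.05, as did 0 of 30351 probes, with 678 probes (2.23%) and 0 members under an unadjusted p of 0.05. For KO minus WT, 0 members and 0 probes passed, with 972 probes (3.2%) and 1 member under an unadjusted p of 0.05. That member was Myh7 (A_55_P2093231), whose log2 ratio was lower in KO, at -1.65 with a standard error of 0.62 and an adjusted p of 0.84 in limma. The difference was -1.07 (standard error 0.72) for Myh4 and -0.95 (standard error 0.70) for Myh1. Both values rested on the pairs at 30 min, since they were -0.21 and -0.20 without WT at 30 min and -0.22 and -0.05 without KO at 30 min. Without KO at 60 min they were -1.92 and -1.84, and neither passed. These fits join 30 and 60 min, at which the members differed. Setting the genotypes side by side at 30 min alone leaves 1 value each, and that difference was not tested. With time as a covariate 17 probes and 0 members passed (lowest adjusted p of a member 0.40 from limma). Without the WT comparison at 60 min, WT had only 1 value. The KO minus WT estimate was then -1.92 for Myh4, -1.70 for Myh1 and -1.76 for Myh8 (A_51_P143296). It was -2.09 for Myh7 (A_55_P2093231), and -3.23 (A_55_P2066440) and -2.62 (A_55_P2083406) for the Myh3 probes. The median over the 13 members was -1.44, with 2 of them above 0. The Myh7 probe and both Myh3 probes are those with a dim vehicle sample in WT at 30 min, described above. That fit assumed the lone WT value to vary like the KO values and kept only 1 residual degree of freedom. Its standard error was 0.42 for each of the 13 members, so it did not reflect the spread of a single probe.

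The levels were tested with limma over the 8 RNA samples, with terms for genotype, time and treatment and the hybridized pair as a random block. The Myh8 probe A_55_P2120169 was higher in KO than in WT by 0.44 (standard error 0.04, adjusted p = 0.029), where 2.19% of probes were higher and 2.18% lower. With vehicle first, its WT levels were 6.20 and 6.21 at 30 min and 6.35 and 6.36 at 60 min, while its KO levels were 6.57 and 6.66 at 30 min and 6.80 and 6.83 at 60 min. The KO samples thus all lay above the WT samples, where 1 array of each sample had the probe well above background. It was also higher at 60 than at 30 min by 0.18 (standard error 0.04, adjusted p = 0.048 from limma), where 5.71% of probes were higher and 3.65% lower. On simulated data this fit gave more false calls than its threshold allows in both tests. The other 12 members passed in neither test. Under an unadjusted p of 0.05 there were 3 members for genotype, against 26.2% of all probes, and 1 for time, against 29.6%. Without the WT pair at 30 min, the WT pair at 60 min or the KO pair at 60 min, the adjusted p of this probe in limma was 0.17, 0.10 and 0.11 for genotype and 0.14, 0.18 and 0.22 for time. The estimates then lay between 0.41 and 0.47 for genotype and between 0.15 and 0.21 for time. These fits kept 2 residual degrees of freedom and called 0 of 30351 probes, with 5216, 8425 and 8113 under an unadjusted p of 0.05 for genotype and 7354, 6125 and 7613 for time. In a fit of the 16 single channels, with the RNA sample as random block in place of the hybridized pair and the dye orientation as a replicate block, the difference between times was not called (adjusted p = 0.077 from limma), and the Myh8 probe A_55_P2120161 was called lower in KO by 0.39 (standard error 0.08, adjusted p = 0.0062). Without the dye term, a fit chosen after seeing the data, the single channels gave the same calls of these probes (adjusted p = 0.12 and 0.0041 from limma). These calls thus changed with the use of single channels and their block, and not with the dye term. In the fit of the 8 RNA samples A_55_P2120161 had an adjusted p of 0.10. Myh11 was lower in KO by 0.25 (standard error 0.09, adjusted p = 0.16 from limma). Genotype and time vary only between the 4 hybridized pairs, so these p-values can be too small, and with the vehicle samples alone 0 members and 0 probes passed, with 4352 probes under an unadjusted p of 0.05 for genotype and 7401 for time.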

How the data were processed

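Per the labels and file headers, total RNA of forepaw skin was labelled with Cy3 and Cy5 and hybridized to 8 Agilent mouse arrays. The authors scanned the arrays with Feature Extraction, of which the file headers give version 12.0.3.1 and the submitters' processing notes 11.0.1.1. The authors' software corrected the background and applied LOWESS within an array before it gave the deposited log10 ratio (red over green). The deposited p-value of a spot comes from the software's error model of 1 array. The deposited intensity values per channel are processed signals, mean signals and local backgrounds, and the deposited series matrix repeats the processed signals as log10 ratios, to within 5e-10.

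Control spots and outlier spots (198 to 342 per array) were left out, and 0 spots were saturated. The share of spots well above background was 78.6% to 94.5% in red and 54.0% to 65.3% in green. The software had set 13.4% to 25.0% of log ratios to 0. Precision is limited by the number of arrays. Ratios were turned to PACAP over vehicle by the dye in the labels and averaged over both arrays. Levels followed normexp (offset 50), loess and Aquantile normalization. limma 3.58.1 in R 4.3.3 (lmFit, eBayes, duplicateCorrelation, Benjamini-Hochberg adjustment) was run on the 30351 probes that each array measured well above background in 1 channel or both. Python 3.11.15 with pandas 2.3.3 and matplotlib 3.10.9 was used otherwise. The replicate number in the labels marks the dye orientation. Arrays of the same number deviated together (r between 0.703 and 0.847 over 30351 probes), so it was used as a block in alternative fits of single arrays and single channels. The counting rule and the limma fits were tested on simulated data, in which the level fit gave more false calls than its threshold allows.

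Named are all probes of the members, the counted genes and the brightest gene of each list, and the 3 genes most like Myh3, Myh4, Myh7 and Myh11 over the RNA samples, of which 1 is not reported here. Myl1, Mylpf, Unc45b, Myog, Myod1, Cdh15, Actc1 and Myl4 were named after their values were seen. Listed genes were read by their brightest probe. The members and lists were chosen with earlier results of these data known. Coordinates are those of the files (mm9), and promoter windows are RefSeq's on GRCm38.p6, with an entry for 7 of the 8 members, all but Myh11. As alternatives, the p filter, the fold threshold, the normalization, the centring and the filter on dim probes were changed, outlier spots were kept, the series matrix was used, and each array or pair was left out.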

Additional observations from a re-analysis of the deposited data

Results flagged for a closer look

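In 7 probes, both arrays of 1 comparison lay on one side of 0 and both arrays of the other comparison on the opposite side, with at least 1 of the means past the thresholds. The differences below are of the log2 ratio of PACAP over vehicle, and they were not tested, since each comparison has 1 pair of RNA samples. KO minus WT at 30 min was -2.59 for Myh1, -2.17 for Myh2, -2.77 for Myh4, -2.60 for Myh8 (A_51_P143296) and -3.02 for Myh7 (A_55_P2093231). For the Myh3 probes it was -3.00 (A_55_P2083406) and -3.70 (A_55_P2066440). With normexp and loess the Myh3 values were -0.59 and -1.14 and that of Myh7 -1.07, while Myh1, Myh2, Myh4 and Myh8 lay between -2.73 and -2.12. Within WT, 60 minus 30 min was -1.50 for Myh1, -1.71 for Myh4 and -1.51 for Myh8 (A_51_P143296). Within KO, 60 minus 30 min was 1.79 for Myh1, 1.70 for Myh4, 1.86 for Myh7 (A_55_P2093231) and 1.67 for Myh8 (A_51_P143296), of which Myh7 was 0.68 with normexp and loess. The skeletal muscle markers differed in the same directions, with medians of 0.72 (WT) and -0.77 (KO) at the earlier time.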

How the results depend on the processing

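Of the 64 counts of members under other settings of the counting rule, 62 stayed within 1.5 times of the reported ones. Most of these 62 were counts of 0 that stayed 0, and the 2 that moved were both of up-regulated members in WT at 30 min. In WT at 30 min the count of up-regulated members was 4 in place of 7 with normexp and loess, and 4 where both channels had to be well above background, since the Myh3 probes and Myh7 (A_55_P2093231) then dropped out. With 1 array left out, this count was 6 to 7 and that of down-regulated members in KO at 30 min 5 to 6. The other counts of members were 0 to 0. The shares of all probes counted under these other settings are not given here, so these counts cannot be set against all probes. In limma, leaving out an array or a pair gave 0 to 1 members higher (and 0 to 0 lower) for the mean PACAP effect, with the 1 on the arrays with PACAP in Cy5 alone. Over all probes it called 0 to 2318 for that effect. For KO minus WT, 0 members passed with 1 array left out. Leaving out a pair there leaves 1 value in a genotype, so only estimates are given. For Myh4 these lay between -1.92 and -0.21 over all pairs and arrays left out. For levels, leaving out an array or a pair gave 0 to 1 members higher for genotype, and 0 to 1 higher and 0 to 1 lower for time, over 0 to 2994 and 0 to 11017 probes called, against 1326 and 2842. The time difference of the lone member lower rests on leaving out KO at 30 min. The Myh8 call (A_55_P2120169) was lost for genotype and time without WT at 30 min, WT at 60 min or KO at 60 min and on either array alone, with estimates of 0.38 to 0.49 and 0.14 to 0.22 over all pairs and arrays left out. Those 3 fits without a pair called 0 of 30351 probes. The vehicle samples alone gave 0 members higher in both. In single channels with the replicate block and the RNA sample as random block, levels gave 1 member lower for genotype in place of 0, and 0 higher for time in place of 1. The same counts, 1 and 0, came from single channels with no dye term, which was chosen after seeing the data, so the dye term did not change them. In single arrays with the replicate block, 0 members were called for either PACAP effect, as without single arrays. All probes called in single channels were 5518 and 7052 with the replicate block and 5847 and 6817 with no dye term. For the other changes the cause was not tested. Dim probes (Myh3, Myh6 A_55_P2140453, Myh7 A_55_P2093231, Myh8 A_55_P2120169) are limited by their signal over background.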
